A study of Sus scrofa with 8 samples.

Results

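The abundant long noncoding RNAs (lncRNAs) of porcine liver were examined in young and old animals. They were selected on the deposited values themselves, as every lncRNA whose mean over the 4 liver libraries was at least 10 CPM, which are reads of an RNA scaled to the size of its library. There were 138 such lncRNAs among the 4028 in the lncRNA table, or 3.43%, and 1 of them, MSTRG.126734, is given apart from the other 137 because it held most of the reads. Since the members were chosen by level, their high level is a description and not a finding.

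The animals were 4 healthy sows of the Yana breed, which is native to China, with no treatment or genetic change in either group. The young livers (YL) were from 2 sows aged 180 days and the old livers (OL) from 2 sows aged 8 years, all without recent common ancestors and without food on the night before slaughter. Each sow gave 1 rRNA-depleted RNA-seq library, so a replicate is an animal. The young sows had never farrowed and the old sows were at the end of their breeding life, so age and reproductive history cannot be told apart.

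lncRNAs are transcripts without a recognised protein-coding frame. Known examples act as scaffolds for protein complexes, guide chromatin modifiers to genes, influence transcription of neighbouring genes or bind small RNAs, and many are expressed in few tissues and at low levels. In liver such RNAs have been tied to lipid and glucose handling and to the response to injury. All but 1 of the lncRNAs described here are loci assembled from the reads and carry only an assembly number (MSTRG), so no function is known for them from their names. The exception, ENSSSCG00000030804, has an Ensembl identifier without a gene symbol. None of 12 well-known noncoding RNA symbols that were looked up, MALAT1 and NEAT1 among them, was found by symbol. An RNA listed under an assembly number alone could not be found in this way, so these RNAs were not shown to be absent.

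The libraries held 51494798, 52207649, 28324675 and 31630060 reads assigned to mRNAs and lncRNAs in young replicate 1, young replicate 2, old replicate 1 and old replicate 2, and all values below are given in that order. The lncRNA table took 27.1%, 28.9%, 20.6% and 21.4% of these reads. Within a library at least 99.994% of the values are multiples of the same smallest step, that of a single read, so they behave as CPM and take no account of transcript length. The total they were scaled to is not stated: the lncRNA values sum to 151766, 174250, 94938 and 94159 CPM and the mRNA values to 408898, 428910, 365330 and 346173 CPM. Both sums are lower in the old livers, and a CPM value is therefore not the share of the tables' reads, which is given apart. The hepatocyte marker list, with ALB and other plasma proteins, summed to 52817, 60835, 37565 and 45985 CPM over the 11 of 15 markers found, and skeletal muscle markers to 2.33 CPM or less, so the markers of liver were present. Without overlap, 0 of the hepatocyte markers were higher and 3 lower in old livers. Old replicate 1 stood apart in interferon-stimulated genes, whose 12 found members of 18 summed to 49.1, 63.5, 1839 and 44.7 CPM. Summed macrophage markers (6 of 10 found) were higher in both old libraries, at 233, 254, 343 and 376 CPM, with 4 higher and 0 lower without overlap. Summed T and NK cell markers (7 of 10 found) were also higher, at 10.47, 12.5, 21.4 and 14.2 CPM. Of their entries 6 were higher and 1, for GZMA (3.31, 3.33, 2.08 and 1.34 CPM), lower without overlap. CD2 gave 2.68, 2.77, 8.82 and 2.99 CPM of that sum. Endothelial markers (6 of 10 found) summed to 80.2, 81.7, 217 and 153 CPM, of which FCN2 gave 36.8, 42.7, 148 and 107 CPM, with 2 of the 6 higher and 1 lower in old livers without overlap. The part of these shifts in the results below was not tested. In bulk tissue fewer cells of a type and less RNA per cell cannot be told apart.

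MSTRG.126734 took more reads than any other RNA in every library. Its values were 127798 and 155958 CPM in young livers against 63262 and 77640 CPM in old livers, so both old livers lay below both young livers. The mean fell from 141878 ± 19912 CPM (SD, n = 2) to 70451 ± 10167 CPM (SD, n = 2), which made the young mean 2.01 times the old mean. It ranked first in reads among all mRNAs and lncRNAs in each library, with 3.28, 3.80, 2.26 and 3.10 times the reads of the highest mRNA, a comparison of reads that takes no account of length. Its locus is on chromosome 4 of Sscrofa10.2, from position 59239430 to 59239938, a span of 509 bp, and no circular RNA (circRNA) of the study lay within it. On the log2(CPM + 1) scale the difference, old against young, was -1.01 with a standard error of 0.20, and the adjusted p of limma over the 3228 lncRNAs tested was 0.249. The difference kept its sign under other scalings, at -0.49 with trimmed-mean (TMM) factors of the lncRNA reads, -0.77 against the mRNA total and -1.14 against the lncRNA total without it. After TMM scaling the age groups overlapped.

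The share of MSTRG.126734 in the lncRNA reads was 84.2% and 89.5% in young livers against 66.6% and 82.5% in old livers. The old livers were lower by 12.3 percentage points on average, from 86.9% ± 3.74 to 74.5% ± 11.2 (SD, n = 2 each), with an exact two-sided permutation p of 0.333, the smallest that 2 against 2 libraries can give. Without old replicate 1 the difference was -4.40 percentage points, and without old replicate 2 it was -20.2 percentage points, so the size of the difference rested on which old liver was used. The shares of young replicate 1 and old replicate 2 were the closest pair. Of all mRNA and lncRNA reads, MSTRG.126734 took 22.8% and 25.9% in the young livers against 13.7% and 17.6% in the old livers, a difference of -8.64 percentage points (exact p = 0.333). Counting error was small beside these gaps, since no 95% Wilson interval of a share reached more than 0.106 percentage points to either side, but PCR copies are not independent molecules and the intervals cover counting error only.

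The other 137 members held 12.6%, 7.93%, 28.8% and 13.8% of the lncRNA reads, and both old livers lay above both young livers (difference 11.04 percentage points, exact p = 0.333). A fall of MSTRG.126734 raises this share by construction. When its reads were removed from the total, the 137 took 79.7% and 75.5% of what was left in young livers and 86.2% and 78.8% in old livers. The groups then overlapped, and the difference was 4.92 percentage points (exact p = 0.667), or 1.22 without old replicate 1, 8.61 without old replicate 2, 6.98 without young replicate 1 and 2.85 without young replicate 2. Of all mRNA and lncRNA reads, the 137 held between 2.29% and 5.93%, also with overlap between the ages (difference 1.60 percentage points, exact p = 0.667). All 138 members together held 95.4% to 97.4% of the lncRNA reads of a library, and the 10 highest alone 91.9% to 95.5%.

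Much of the share of the 137 was MSTRG.173427, the second most abundant member. It read 12481 and 7201 CPM in young livers and 18353 and 5915 CPM in old livers, so 1 old liver was the highest and the other the lowest of the 4. Its log2 fold change was 0.14 with a standard error of 0.74 (limma adjusted p = 0.937), and it turned to -0.68 without old replicate 1 and -0.26 without young replicate 2. It made up 52.1%, 39.4%, 57.9% and 35.8% of the lncRNA reads left without MSTRG.126734. The ratio of MSTRG.126734 to MSTRG.173427 was 10.24, 21.7, 3.45 and 13.1, so the 2 leading lncRNAs did not keep a fixed proportion. Among the hepatocyte markers, the mRNA of FGB read 7407, 4366, 10375 and 3494 CPM, the same order of the 4 libraries as MSTRG.173427. FGG, at 1376, 874, 1257 and 418 CPM, was highest in young replicate 1 instead. FGB was picked after its values were seen, and whether MSTRG.173427 is part of a protein-coding RNA was not tested. When MSTRG.173427 was also left out of both the members and the total, an alternative chosen after seeing the data, the remaining 136 members held 57.6% and 59.6% in young livers and 67.2% and 67.0% in old livers. In that form the groups did not overlap and differed by 8.50 percentage points (exact p = 0.333).

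**Figure D1:**
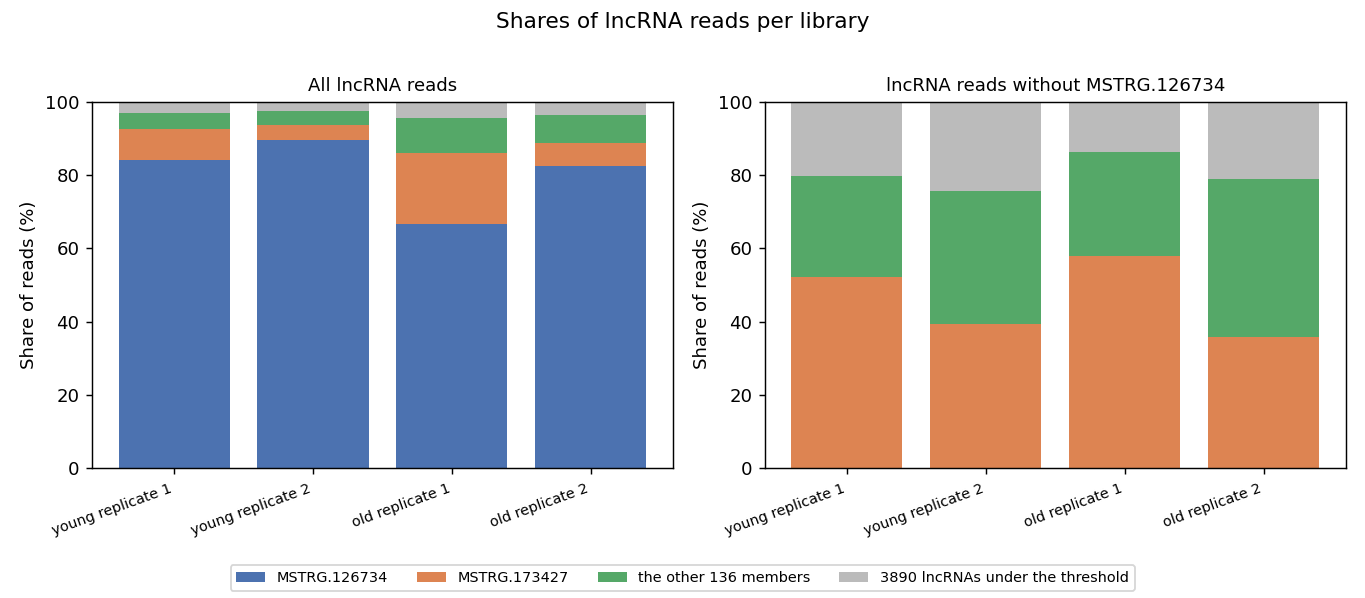
Stacked bars give the share of lncRNA reads (%) in each of the 4 libraries, over all lncRNA reads on the left and over the reads left without MSTRG.126734 on the right. MSTRG.126734 fills 84.2% and 89.5% of the young bars and 66.6% and 82.5% of the old bars, and MSTRG.173427 takes 35.8% to 57.9% of the remainder.

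In summed values rather than shares, the 136 members below MSTRG.173427 came to 6612 and 6615 CPM in the young livers, nearly the same in both animals, and to 8953 and 7105 CPM in the old livers. The 3890 lncRNAs under the threshold summed to 4876 and 4477 CPM in young livers and to 4369 and 3499 CPM in old livers. On the deposited scale the old livers were thus higher for the first sum and lower for the second, in both animals each time. Since the summed mRNA and lncRNA values were also lower in old livers, a lower second sum need not be a lower share of reads. The median value of the 137 was 17.9, 15.7, 17.6 and 14.8 CPM, with no order by age.

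The levels of the members fell steeply with rank. There were 3 members at a mean of 1000 CPM or more, 12 from 100 up to 1000, 10 from 50 up to 100, 28 from 20 up to 50 and 85 from 10 up to 20 CPM. The median of the means of the 137 was 15.6 CPM, against 0.429 CPM over the whole table. The threshold had no gap behind it. Just inside it lay MSTRG.68019 (20.5, 9.90, 4.78 and 6.29 CPM), MSTRG.35308 (7.70, 12.5, 2.32 and 17.9 CPM) and MSTRG.131252 (6.36, 8.19, 19.5 and 6.07 CPM). Just outside lay MSTRG.128695 (17.1, 14.5, 3.45 and 4.59 CPM), MSTRG.33478 (4.83, 14.9, 9.49 and 10.4 CPM) and MSTRG.39704 (10.9, 10.04, 7.77 and 10.9 CPM).

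A mean of 10 CPM did not require the lncRNA to be abundant in every animal. Only 51 members were at 10 CPM or more in all 4 libraries, and 135 were above 0 in all of them. The age group mean was at least 10 CPM in both ages for 77 members, in young livers alone for 28 and in old livers alone for 33, so those 61 entered through 1 age. More than 50% of the summed value came from 1 library in 38 members, which was young replicate 1 in 5 of them, young replicate 2 in 6, old replicate 1 in 19 and old replicate 2 in 8. Old replicate 1 is the library with the high interferon-stimulated genes and also the one with the fewest reads. Whether either bears on these counts was not tested.

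**Figure D2:**
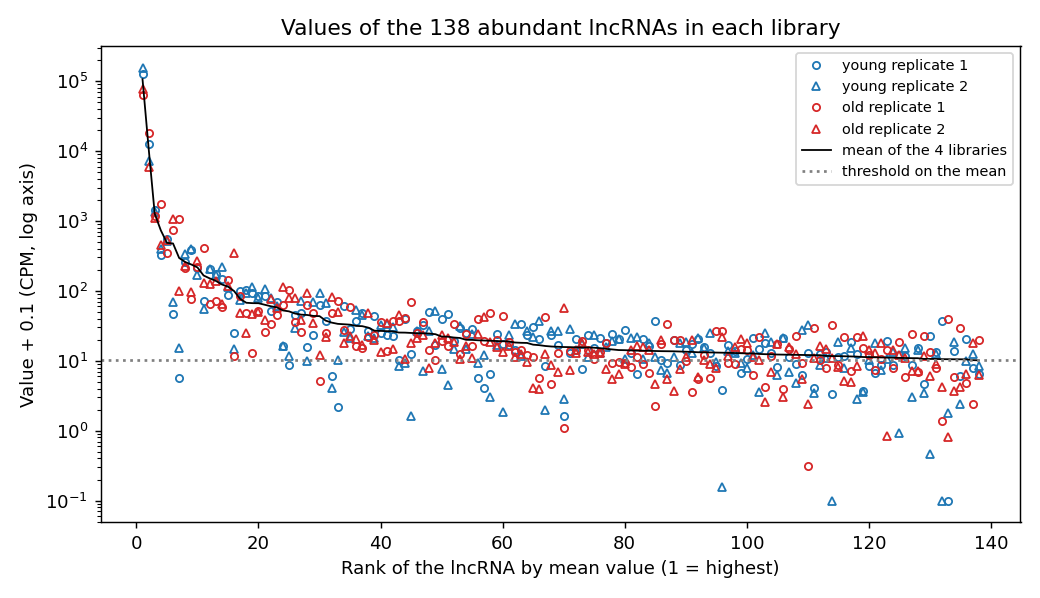
Each lncRNA is placed by its rank (1 is the highest mean), with its value plus 0.1 in each library on a log axis (CPM) as points, the mean as a line and the threshold dotted. The mean drops from 106164 CPM at rank 1 to 10987 at rank 2, and the points of single libraries scatter widely around it at lower ranks.

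Among the next most abundant members, several stayed within a narrow range across the 4 livers. MSTRG.136130 on chromosome 5 (23100505 to 23101237) read 1416 and 1342 CPM in young and 1185 and 1110 CPM in old livers. The old values were both lower, by 0.27 on the log2 scale (SE 0.12, limma adjusted p = 0.474), and the sign turned under TMM scaling (0.25). MSTRG.193023 (scaffold GL892911.1, 273634 to 274361) read 549, 521, 342 and 530 CPM, with 3 of the livers close together and old replicate 1 low. MSTRG.193234 (scaffold GL892962.1, 13466 to 14507) read 260, 339, 209 and 224 CPM, and its old values were below its young values as deposited but not after TMM scaling (log2 fold change -0.45 and 0.06). MSTRG.143041 on chromosome 6 (874177 to 876027) read 210, 167, 219 and 269 CPM, higher in both old livers, with a log2 fold change of 0.37 (SE 0.21, limma adjusted p = 0.550).

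Other members of the 10 highest after MSTRG.126734 were far apart between the ages. MSTRG.207324 (scaffold JH118554.1, 8127 to 8505, 379 bp) read 46.4 and 68.2 CPM in young livers and 735 and 1053 CPM in old livers. Both old livers were above both young livers and the old mean was 15.6 times the young mean, with a log2 fold change of 3.94 (SE 0.32). Its limma adjusted p of 0.181 was the lowest among the members, a value that several of them shared. MSTRG.117900 on chromosome 3 (82014564 to 82015802) ran the other way, at 378 and 402 CPM in young livers and 75.4 and 96.5 CPM in old livers. Its young mean was 4.53 times its old mean, with a log2 fold change of -2.18 (SE 0.18, limma adjusted p = 0.181). Without any 1 library the fold change stayed between 3.67 and 4.21 for MSTRG.207324 and between -2.35 and -2.0 for MSTRG.117900.

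In 3 more of the 10 highest after MSTRG.126734, besides MSTRG.173427, old replicate 1 was far above the other old liver. MSTRG.143042 on chromosome 6 (876506 to 878377) read 5.63 and 14.9 CPM in young livers and 1059 and 101 CPM in old livers. It had the largest fold change of all members, 5.00 on the log2 scale (SE 1.46, limma adjusted p = 0.333), and 89.7% of its summed value was in old replicate 1. Without that library the fold change was 3.31. MSTRG.143066, also on chromosome 6 (956160 to 959697), read 324, 396, 1763 and 445 CPM, and its fold change of 1.30 became 0.31 without old replicate 1. MSTRG.37628 on chromosome 12 (32804422 to 32805069) read 70.8, 55.5, 409 and 128 CPM, and its fold change of 1.85 became 1.02 without it.

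**Figure D3:**
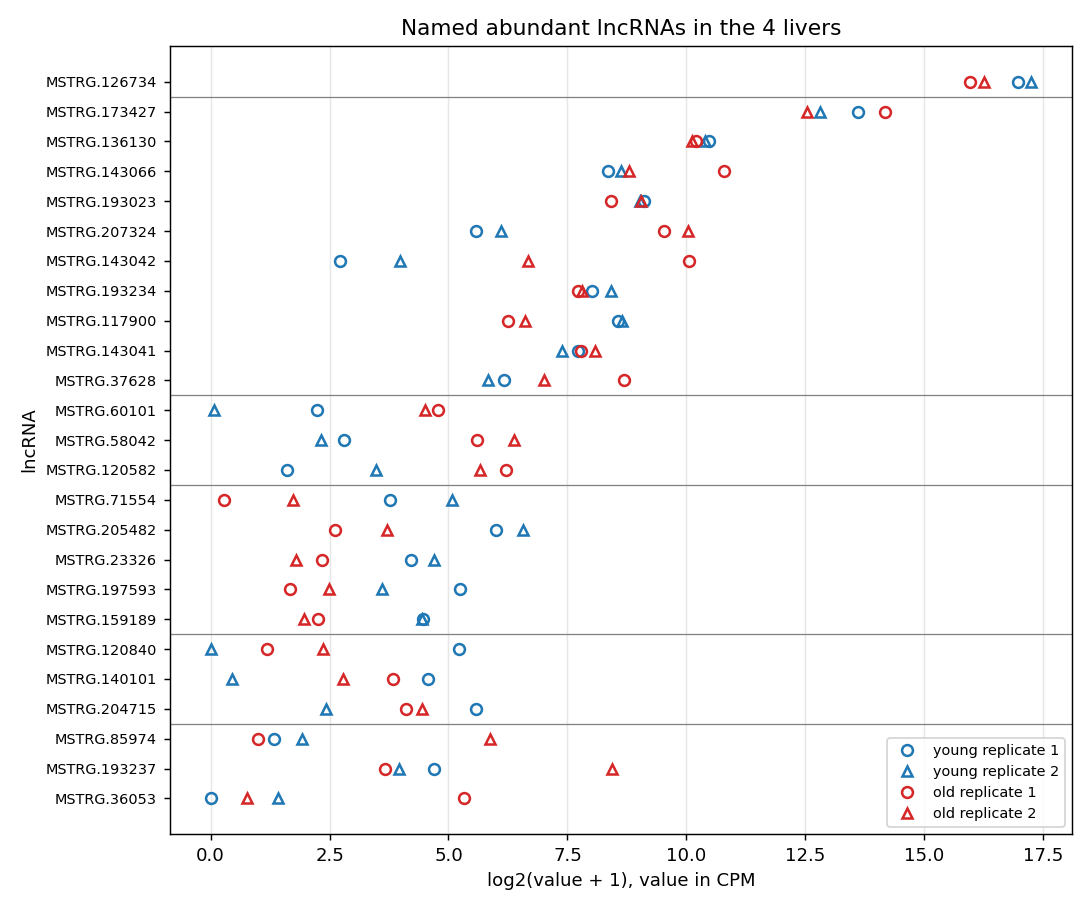
Points give log2(CPM + 1) of each named lncRNA in the 4 livers, young in blue and old in red, replicate 1 as circles and replicate 2 as triangles. From top to bottom the blocks hold MSTRG.126734, the next 10 by mean, further members higher and lower in old livers, and those whose young or old libraries differed most. The red points of MSTRG.207324 lie right of its blue points, those of MSTRG.117900 lie left, and MSTRG.193237 has 1 old liver far from the other 3.

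Across the 3228 lncRNAs above 0 in at least 2 libraries, all 138 members among them, no lncRNA passed an adjusted p of 0.05 with an absolute log2 fold change above 1 in limma. The background of that call was therefore 0%, and the adjusted p of the members ran from 0.181 to 0.993. At an unadjusted p under 0.05 with the same cut on the fold change, 17 members were higher and 22 lower in old livers, or 12.3% and 15.9% of the 138, where 3.72% and 3.66% of all lncRNAs tested were. These unadjusted calls are a description, and since the mean of an old-high or young-high member counts toward its entry, the shares cannot be read as a property of abundance. The quasi-likelihood test of edgeR also called no member after adjustment, with 22 higher and 6 lower at an unadjusted p under 0.05 and the same fold change cut. The share of all lncRNAs tested that passed this cut was not counted for that test, so the 22 and 6 cannot be set against a background.

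With recovered reads, the edgeR exact test called 3 members, all higher in old livers, which is 2.17% beside 0.713% of all lncRNAs tested. Lower in old livers it called 0 members beside 0.062% of all tested. A high value in 1 age counts toward entry here too, so these shares cannot be read as a property of abundance. The 3 were MSTRG.143042 (edgeR exact test, adjusted p = 0.00699), MSTRG.207324 (edgeR exact test, adjusted p = 0.0202) and MSTRG.58042 (edgeR exact test, adjusted p = 0.0354). MSTRG.58042 on chromosome 13 (218076768 to 218078534) read 6.03 and 4.01 CPM in young and 47.8 and 82.1 CPM in old livers, with the old mean 12.9 times the young mean. With another way of estimating the dispersion (estimateDisp), chosen after seeing the data, the same test called 11 members, all higher in old livers, or 7.97% beside 8.43% of all lncRNAs tested.

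Groups that did not overlap were counted as well. Both old livers were above both young livers in 31 members (22.5%, where 30.6% of all lncRNAs tested were) and below both in 50 members (36.2%, where 18.6% were), and 57 overlapped. The lncRNAs just below in level, 1169 with a mean from 1 up to 10 CPM, had 15.0% higher and 29.5% lower without overlap, so a surplus of lower over higher was also seen outside the members. With TMM scaling the members stood at 49 higher (35.5%, background 37.1%) and 28 lower (20.3%, background 10.6%). The split between higher and lower thus changed sides with the scaling, while 31 members were higher and 28 lower in both. Because a high value in 1 age helps a member to enter, none of these shares is a result about abundance.

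The fold changes of the 137 other members had a median of -0.27 on the log2 scale, beside 0.00 over all lncRNAs tested and -0.28 over the 1307 tested with a mean of at least 1 CPM. TMM scaling moved it to 0.25, beside 0.12 over all tested, and scaling to the mRNA total to -0.03. By ratio of means, 32 members were more than 2-fold higher in old livers, 34 more than 2-fold lower and 72 within 2-fold either way, MSTRG.126734 being among the lower. By level, 6 members of the 12 from 100 up to 1000 CPM were higher and 5 lower without overlap, while from 10 up to 20 CPM 18 were higher, 30 lower and 37 overlapped. On the same deposited values 30.6% of all lncRNAs tested were higher and 18.6% lower without overlap.

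**Figure D4:**
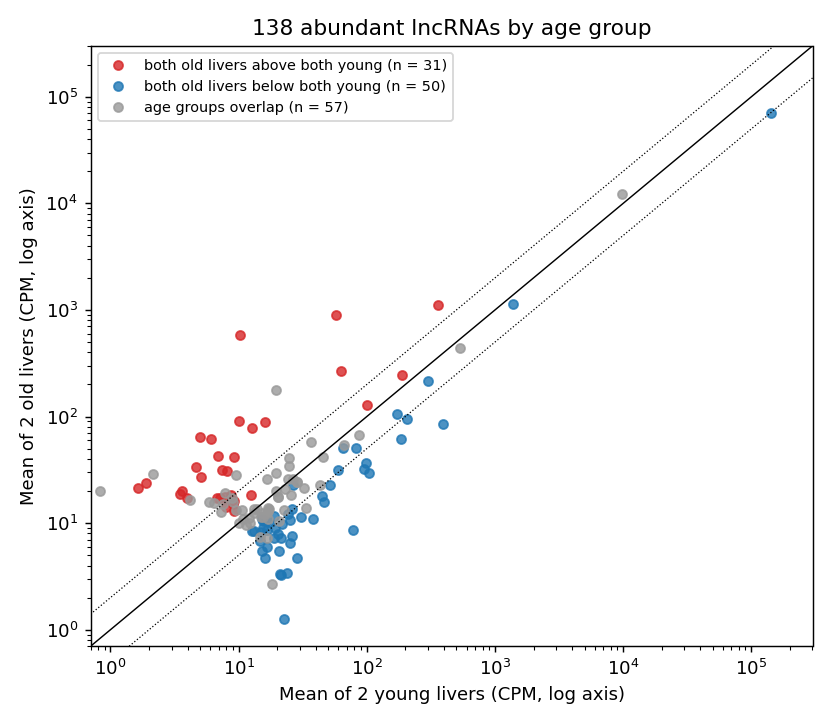
The mean of the 2 young livers is plotted against the mean of the 2 old livers for the 138 members, both in CPM on log axes, with equality as a solid line and 2-fold differences dotted. The 31 members whose old livers both lay above both young livers are red, the 50 below are blue and the 57 that overlap are grey, with MSTRG.126734 at the top right on the lower dotted line.

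**Figure D5:**
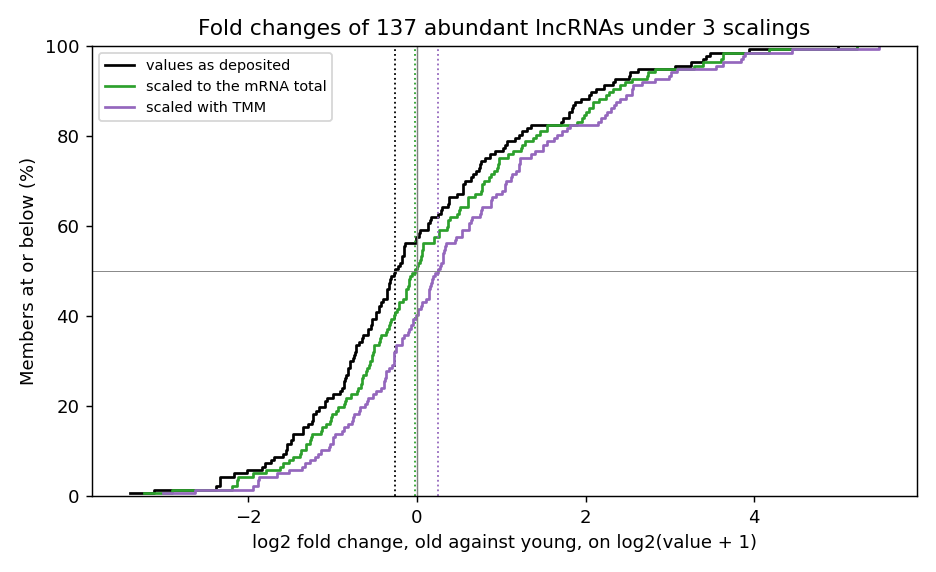
Curves give the share of the 137 other members (%) at or below each log2 fold change of old against young livers, for the deposited values and 2 other scalings, with the medians dotted. The median lies at -0.27 as deposited, -0.03 with the mRNA total and 0.25 with TMM, and the curves are shifted along the axis.

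Further members with the largest differences and no overlap were of lower level. Higher in old livers were MSTRG.60101 on chromosome 14 (3.70, 0.058, 26.3 and 21.7 CPM, log2 fold change 3.48) and MSTRG.120582 on chromosome 3 (2.05, 10.1, 72.4 and 49.9 CPM, log2 fold change 3.40). The young livers differed more from each other than the old livers did in both, by 63.8-fold for MSTRG.60101. Lower in old livers was MSTRG.71554 on chromosome 15, at 12.6 and 32.5 CPM in young and 0.211 and 2.34 CPM in old livers (log2 fold change -3.41, SE 0.80). MSTRG.205482, a member that the study also names among its changed lncRNAs and that lies on scaffold GL896383.1 (3881 to 4813), read 62.5 and 93.9 CPM in young and 5.09 and 12.0 CPM in old livers. Its log2 fold change was -3.12 (SE 0.51, limma adjusted p = 0.228), and the young mean was 9.14 times the old mean. The study called MSTRG.205482 lower in old livers with edgeR at a q-value under 0.05 and included it in its q-PCR. With the edgeR exact test on the recovered reads its adjusted p was 0.156, so that call was not recovered here.

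MSTRG.23326 on chromosome 10 (17.6, 25.1, 4.08 and 2.48 CPM), MSTRG.159189 on chromosome 7 (21.0, 20.8, 3.79 and 2.92 CPM) and MSTRG.197593 on scaffold GL894011.1 (36.8, 11.1, 2.18 and 4.62 CPM) followed, with log2 fold changes of -2.39, -2.34 and -2.34. Within each age MSTRG.159189 was the tightest of these, with a standard error of 0.16. None passed the adjusted threshold in limma or in the edgeR exact test.

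The spread between animals of the same age was wide. The 2 young livers differed by a median of 1.47-fold over the members and the 2 old livers by 1.67-fold. A difference of more than 2-fold was seen between the young livers in 38 members and between the old livers in 44, of which 29 were higher in old replicate 1 and 15 in old replicate 2. The widest young pairs were MSTRG.120840 on chromosome 3 (36.4 and 0 CPM, with 1.27 and 4.12 CPM in old livers), MSTRG.140101 on chromosome 5 (22.6 and 0.358 CPM, with 13.3 and 5.89 CPM) and MSTRG.204715 on scaffold GL896227.2 (46.6 and 4.38 CPM, with 16.3 and 20.8 CPM). In each of these young replicate 1 was the highest of the 4 livers and young replicate 2 was low.

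The widest old pairs included both directions. MSTRG.36053 on chromosome 12 (14960426 to 14964167) was at 0 and 1.66 CPM in young livers and 39.3 and 0.71 CPM in old livers, so 94.3% of its summed value was in old replicate 1. MSTRG.85974 on chromosome 16 read 1.54 and 2.76 CPM in young livers and 0.991 and 57.2 CPM in old livers, and MSTRG.193237 on scaffold GL892962.1 read 24.8 and 14.5 CPM in young livers and 11.8 and 346 CPM in old livers. These were high in old replicate 2 alone. The other member listed at 0 in 1 library, MSTRG.170441, which was chosen after its values were seen, read 3.27, 0, 32.2 and 10.7 CPM. A 0 allows up to 3 reads, or 0.0347 CPM in young replicate 2 and 0.0327 CPM in young replicate 1.

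The loci of the members were described next, on Sscrofa10.2 coordinates. A locus span was given for 137 members, from 349 to 612161 bp with a median of 4889 bp, close to the median of 5171 bp over the table. The span includes introns, since transcript lengths were not given. Spans under 1 kb were found for 27 members (19.7%, beside 12.4% of the table), and these included MSTRG.126734, MSTRG.173427 (538 bp), MSTRG.136130, MSTRG.193023 and MSTRG.207324. When values were divided by the span, MSTRG.126734 stayed first with 208575 CPM per kb and MSTRG.173427 second with 20423 CPM per kb, and 7 of the 10 highest members per kb were also among the 10 highest by CPM. Whether a locus is exonic, intronic or beside a protein-coding gene was not analysed here, because mRNA coordinates and strands of lncRNAs were not at hand.

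Members lay on every chromosome listed, from 2 on chromosome X to 14 on chromosome 3, or 107 in all (77.5% of members, beside 91.8% of the table). Another 30 were on unplaced scaffolds, 21.7% of members beside 7.32% of the table, and their median log2 fold change was 0.22, beside -0.32 for those on chromosomes. Among the 10 highest after MSTRG.126734, MSTRG.193023, MSTRG.207324 and MSTRG.193234 were on scaffolds.

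Some members were neighbours. Within 10 kb of each other there were 4 runs with 8 members (5.84% of those with a locus, beside 19.2% of all lncRNAs in runs of their own), and within 100 kb 8 runs with 17 members (12.4% beside 46.9%). Neighbours were sought among 137 loci for the members and among 3992 for all lncRNAs. A smaller set has fewer neighbours by its size, so these shares do not compare how clustered the loci are. On chromosome 6, MSTRG.143041 and MSTRG.143042 lay 478 bp apart and MSTRG.143066 a further 77782 bp away. All 3 were higher in both old livers. MSTRG.143041 had its highest value in old replicate 2, whereas MSTRG.143042 and MSTRG.143066 both peaked in old replicate 1. On scaffold GL892962.1, MSTRG.193234 and MSTRG.193237 lay 2506 bp apart, the first lower in both old livers as deposited and the second high in old replicate 2 alone.

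On chromosome 12, MSTRG.36053 and MSTRG.36054 lay 22614 bp apart and both peaked in old replicate 1, MSTRG.36054 reading 5.999, 2.35, 29.1 and 4.11 CPM. MSTRG.182224 (9.06, 6.56, 33.4 and 5.33 CPM) and MSTRG.182230 (11.5, 7.78, 21.7 and 5.00 CPM), 7888 bp apart on chromosome 9, were likewise highest in that library. MSTRG.209228 (14.4, 3.501, 21.5 and 10.204 CPM) and MSTRG.209234 (12.4, 2.75, 22.0 and 8.31 CPM) on scaffold JH118898.1 had nearly the same profile. Opposite profiles were seen in MSTRG.90188 (13.0, 24.7, 5.59 and 8.91 CPM) and MSTRG.90204 (10.05, 8.20, 37.2 and 45.4 CPM), 92081 bp apart on chromosome 17. MSTRG.131252 and MSTRG.131256 on chromosome 4 overlap by 977 bp, and without strand their reads cannot be told apart. In the last pair, MSTRG.204713 (12.6, 18.3, 11.4 and 6.75 CPM) lacked the high value that its neighbour MSTRG.204715 had in young replicate 1.

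Circular RNAs, which are closed loops read across a back-splice junction, were annotated wholly inside the loci of 8 members, 5.80% beside 1.46% of all lncRNAs, and overlapped 11 (7.97% beside 3.10%). There were 18 such circRNAs in all. MSTRG.173427 held 4 of them within its 538 bp, all with the same end and with starts 39 bases apart from one to the next. These 4 are counted as annotated, and whether they are distinct circles was not tested. Their summed circRNA signal, in the deposited scale whose unit is not stated, was 7.92, 4.82, 13.0 and 1.95, with the same order of the 4 libraries as the value of MSTRG.173427 itself. MSTRG.8313 on chromosome 1, MSTRG.90188 on chromosome 17 and MSTRG.159189 on chromosome 7 held 3 each. MSTRG.159189 was lower in both old livers, while its leading circRNA, circRNA000898, was at 6.41 and 0 in young livers and 4.15 and 11.5 in old livers.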

How the data were processed

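RNA-seq of rRNA-depleted liver RNA was analysed for 2 young and 2 old sows. The authors sequenced directional libraries, aligned reads to Sscrofa10.2 with TopHat2 (2.0.14), assembled transcripts with StringTie (1.2.3) and gave values named TPM from Salmon (0.6.0), without pooling replicates. The deposited lncRNA and mRNA values are CPM: at least 99.994% of them in each library were whole multiples of 1 step, within the rounding to 3 decimals, and dividing by the step gave whole reads. The circRNA signal was deposited on a scale that is not stated, and miRNAs were not used. Columns naming age and number were matched to the libraries' labels.

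The members and lists were chosen with earlier results of these data known. Old and young were compared with limma 3.58.1 on log2(CPM + 1) over lncRNAs above 0 in 2 or more libraries. Calls needed, after Benjamini-Hochberg adjustment, an adjusted p under 0.05 and an absolute log2 fold change above 1. Exact and quasi-likelihood tests of edgeR 4.0.16 used the recovered reads, with TMM factors. Shares were compared by exact two-sided permutation. The fits were tested on simulated counts, whose dispersions were all below the common dispersion of 1.35 that edgeR gave for these lncRNAs. The simulation therefore does not cover the spread of these data. R 4.3.3 and Python 3.11.15 (scipy 1.17.1, pandas 2.3.3, numpy 2.4.6, matplotlib 3.10.9) were used.

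The text names MSTRG.126734, the 10 other members with the highest mean, the 5 largest fold changes without overlap in each direction, the 3 widest replicate pairs of each age, any member the study names, the 3 lncRNAs on each side of the threshold and neighbouring runs.

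Since values are relative to each library's total, a fall of MSTRG.126734 raises the shares of the rest. Depth was lower in old livers, and every member had at least 2615 reads over the 4 libraries. Alternatives were other scalings, filters, pseudocounts, tests, thresholds and each library left out.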

Additional observations from a re-analysis of the deposited data

How the results depend on the processing

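Over 16 settings, 26 of 432 fold changes of named members reversed, in 11 of 27 members. The members called numbered 3 with the exact test of edgeR and 11 with its estimateDisp form, and 0 in each other setting. The median log2 fold change of the 137 other members was 0.27 in the 3 edgeR settings (0.272 in each), 0.25 with TMM and -0.029 with the mRNA total. In the edgeR settings and with TMM the sign turned for MSTRG.136130 (0.25 and 0.25), MSTRG.193023 (0.26 and 0.19), MSTRG.193234 (0.048 and 0.063) and MSTRG.35308 (0.60 and 0.012). With a pseudocount of 0.1, MSTRG.120840 stood at 0.33. Members without overlap were 196 of 337 for a mean of at least 5 CPM (64 higher, 132 lower), 33 of 53 for at least 20 (13 and 20) and 28 of 51 for at least 10 in every library (6 and 22). These counts are on the deposited values, where 30.6% of all lncRNAs tested were higher and 18.6% lower without overlap. They were not repeated with TMM scaling.

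With each library left out, the log2 fold changes ran from -0.68 to 0.95 for MSTRG.173427, -3.45 to 1.77 for MSTRG.120840, -1.25 to 2.87 for MSTRG.140101, -1.29 to 1.85 for MSTRG.204715, -0.63 to 4.24 for MSTRG.85974, -0.65 to 4.11 for MSTRG.193237, -1.70 to 0.81 for MSTRG.35308 and -0.22 to 1.32 for MSTRG.131252. These fits leave 1 animal in an arm, which is assumed to vary like the other age. The causes were not tested.

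Young and old libraries share only replicate numbers, whose deviations had an r of 0.0586 across 3228 lncRNAs and 0.126 across the 138 members, with 2 pairs. A fit with replicate number as a block called 0 members after adjustment and 48 at an unadjusted p under 0.05 with a log2 fold change beyond 1 (25 higher, 23 lower), against 39 without the block. The share of all lncRNAs passing that cut was not counted for the block fit, so the 48 cannot be set against a background. With 2 animals per age, only large differences can be separated from the spread between animals.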
